A study of Homo sapiens with 15 samples.

Results

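The genes described here encode the machinery of DNA replication and the cell cycle, together with namesakes that work elsewhere. They are the rows of the authors' deposited table that are annotated as protein-coding and whose symbol meets a naming rule. The symbol starts with GINS, POLE or AURK, or with MCM, CDC, CDK, ORC, RFC, POLA, POLD, PLK or BUB followed by a digit. Symbols that start with CCN followed by A, B, D or E and a digit also count. The rule found 61 rows of 60 symbols, which are 0.819% of the 7447 protein-coding rows and part of 11230 rows in all. By textbook role, 24 rows belong to DNA replication, 8 to mitosis and 7 to the control of the step from G1 to S phase. A further 6 act in transcription or splicing, and 16 have other roles, such as the effectors of the small GTPase CDC42. Each row listed has an adjusted p below 0.1 in 1 or more of 4 comparisons, so a gene that differed in none has no row. RefSeq has 120 protein-coding symbols with these names, and 60 of them have a row. AURKA, PLK1, CCNA2, BUB1B, CDC6, CDC45, ORC1, MCM10, CDK2 and CCNE1 are among the 60 others and were not analysed here.

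RNA came from HEK293FT, a human embryonic kidney line that carries adenoviral early genes and the SV40 large T antigen, whose proteins bind the retinoblastoma and p53 proteins. All cells were transfected with an inactive Cas9 fused to the activator VP64, with an MS2-p65-HSF1 activator and with 5 guide RNAs, were given puromycin at 2 ug/mL after 24 hours and gave RNA at 48 hours. In the groups trex0108, trex4039, trex5008 and trex8168 the guides were directed to positions 50 to 450 bp upstream of the start of 1 long non-coding RNA that is transiently expressed as cortical neurons form, and in the control group they had no target. Each of the 5 groups had 3 libraries of polyA RNA, described as biological triplicates, so the controls differ from the other groups in their guides alone by design. Groups are called by the titles of their libraries. The target label of the libraries titled trex8168 names TrEx5008 and that of the libraries titled trex5008 names TrEx8168, and which of the 2 labels is right was not settled.

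Replication starts where the origin recognition complex (ORC) and its partners load the MCM2-7 helicase onto DNA in G1. The kinase CDC7 and the GINS complex help to switch the helicase on in S phase, the RFC clamp loader places the sliding clamp, and polymerases alpha, delta and epsilon copy the strands. Cyclins D and E with CDK4 and its relatives drive the cell into S phase, and cyclin B with CDK1 drives it into mitosis, where the kinase AURKB, the checkpoint kinase BUB1 and the anaphase-promoting complex order the separation of chromosomes. Many replication genes are switched on by E2F factors, and many mitotic genes are switched on later through promoter elements called CHR and CCAAT boxes.

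The table gives group means of normalised counts, log2 fold changes against control, which for every called member lie closer to 0 than the log2 of its mean over the control mean, and adjusted p-values, but no value per library. No SD could therefore be given, no test was run here, and depth is unknown. A gene is said to rise, to fall or to be called where the authors' adjusted p was under 0.05. The non-coding row that rose most in each comparison was a different locus: CTD-2201G16.1 had a mean of 796.6 in trex0108, against 3.40 in control, XLOC_035785 had 491.9 in trex4039, against 12.2 in control, RP11-71N10.1 had 1285 in trex5008, against 4.51 in control, and AC116609.2 had 3908 in trex8168, against 162.5 in control, in the authors' deposited table. These values do not settle the labels, since no column ties a locus to a TrEx number. Of 8 genes known in HEK293 cells (PAX2, LHX1, EYA1, NEFL, NEFM, NEFH, INA and VIM), 5 have a row, with overall means from 343 for PAX2 upward, and of 9 markers of neurons and neural progenitors only NES has one. Of the 5 HEK293 rows, 1 rose and 3 fell in trex4039, 0 rose and 2 fell in trex5008 and 0 rose and 1 fell in trex8168, beside 41.6% and 30.9%, 32.4% and 24.6%, and 16.6% and 4.57% of all listed protein-coding rows, and NES fell in trex4039 (-0.32, adjusted p 2.30e-04), in the authors' deposited table.

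The promoters of 6 members are shown as examples: ORC3, MCM2 and POLE for replication, and CDK1, CCNB2 and CDC20 for mitosis. The motif counts below cover all windows found, and a link of promoters to the changes was not tested. Each runs from 250 bases before to 50 bases after the RefSeq start (GRCh38.p14), 5′ to 3′ on the gene's strand. They lie at chr6:87589885-87590184 (ORC3, plus strand), chr3:127598161-127598460 (MCM2, plus strand), chr12:132687293-132687592 (POLE, minus strand), chr10:60778228-60778527 (CDK1, plus strand), chr15:59104896-59105195 (CCNB2, plus strand) and chr1:43358731-43359030 (CDC20, plus strand). Capitals mark the letters searched on both strands: TTTCGCGC, TTTGGCGC, TTTCCCGC or TTTGCCGC for E2F, TTTGAA for the CHR, and CCAAT.
ORC3: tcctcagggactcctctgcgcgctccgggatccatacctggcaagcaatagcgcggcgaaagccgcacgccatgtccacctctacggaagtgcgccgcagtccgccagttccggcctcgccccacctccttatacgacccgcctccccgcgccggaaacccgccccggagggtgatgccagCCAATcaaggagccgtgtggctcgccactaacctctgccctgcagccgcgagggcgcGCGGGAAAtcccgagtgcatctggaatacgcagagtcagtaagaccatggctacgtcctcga
MCM2: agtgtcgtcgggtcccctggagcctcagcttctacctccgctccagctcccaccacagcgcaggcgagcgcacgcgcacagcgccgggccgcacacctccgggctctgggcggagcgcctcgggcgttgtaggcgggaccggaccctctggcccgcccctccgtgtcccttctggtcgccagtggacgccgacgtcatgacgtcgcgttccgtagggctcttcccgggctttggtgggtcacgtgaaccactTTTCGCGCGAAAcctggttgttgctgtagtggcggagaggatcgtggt
POLE: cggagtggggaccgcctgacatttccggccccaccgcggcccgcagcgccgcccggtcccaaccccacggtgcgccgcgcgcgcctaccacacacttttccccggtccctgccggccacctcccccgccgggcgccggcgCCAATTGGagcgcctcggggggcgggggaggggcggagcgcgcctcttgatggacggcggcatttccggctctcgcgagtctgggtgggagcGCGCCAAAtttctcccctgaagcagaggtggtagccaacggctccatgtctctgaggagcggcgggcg
CDK1: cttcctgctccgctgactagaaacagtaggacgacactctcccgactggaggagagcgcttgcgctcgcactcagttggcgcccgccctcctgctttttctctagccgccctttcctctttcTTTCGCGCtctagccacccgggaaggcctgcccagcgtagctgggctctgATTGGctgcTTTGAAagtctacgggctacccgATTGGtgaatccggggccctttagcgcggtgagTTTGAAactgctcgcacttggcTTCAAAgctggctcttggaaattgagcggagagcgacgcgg
CCNB2: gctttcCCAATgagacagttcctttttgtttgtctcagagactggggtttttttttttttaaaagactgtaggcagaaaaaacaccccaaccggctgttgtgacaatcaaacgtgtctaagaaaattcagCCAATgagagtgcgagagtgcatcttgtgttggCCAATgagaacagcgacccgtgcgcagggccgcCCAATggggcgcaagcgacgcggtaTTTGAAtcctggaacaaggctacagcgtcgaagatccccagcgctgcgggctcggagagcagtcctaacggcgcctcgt
CDC20: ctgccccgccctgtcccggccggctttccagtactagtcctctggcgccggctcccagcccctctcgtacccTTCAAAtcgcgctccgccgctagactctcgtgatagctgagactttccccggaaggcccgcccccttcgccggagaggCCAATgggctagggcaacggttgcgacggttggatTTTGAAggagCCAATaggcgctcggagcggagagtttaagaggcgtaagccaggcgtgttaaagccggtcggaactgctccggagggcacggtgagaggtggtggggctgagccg

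The ORC3 window holds an E2F match whose first base lies 12 bases before the start and a CCAAT 69 bases before it, and the POLE window an E2F match 18 bases before the start. In MCM2 the E2F letters occur on both strands in an overlapping stretch that begins 3 bases after the start. The CDK1 window holds 1 E2F match, 3 CHR matches and 2 CCAAT matches, CCNB2 holds 1 CHR match and 4 CCAAT matches, and CDC20 holds 2 of each of these. RefSeq windows were found for 51 of the 60 symbols. E2F letters occurred in 13 of 28 windows of replication members (46.4%) and in 2 of 13 windows of mitosis members (15.4%, both of CDK1), beside 4.10% of 22199 protein-coding windows. CHR letters occurred in 1 replication window (3.57%) and 6 mitosis windows (46.2%), beside 12.4% of all windows. CCAAT occurred in 15 replication windows (53.6%) and 11 mitosis windows (84.6%), beside 34.7% of all windows. A match is a run of letters and not a tested site, and windows of 1 gene can overlap. ORC3 and POLE, which both carry E2F and CCAAT letters, moved in opposite directions in the comparisons that follow.

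In trex4039, 24 of the 60 members with an adjusted p rose and 19 fell. These are 40.0% and 31.7% of them, and among all listed protein-coding rows 41.6% rose and 30.9% fell. In trex5008, 28 rose and 13 fell of 60 (46.7% and 21.7%), beside 32.4% and 24.6% of listed protein-coding rows. In trex8168, 10 rose and 2 fell of 60 (16.7% and 3.33%), beside 16.6% and 4.57%. In trex0108, 0 of 61 members rose or fell at an adjusted p under 0.05, while 5.52% of listed protein-coding rows rose and 0.228% fell. The columns used here hold no unadjusted p and no second tool's calls. At the authors' own limit of 0.1, the MCM7 row alone was called there. The member counts thus lie near the background in trex4039 and trex8168, with the largest gap for rises in trex5008. All 4 comparisons use the same 3 control libraries, so their values are set side by side and no overlap between them is drawn. In RNA of whole cultures, fewer cells in a phase and less RNA per cell cannot be told apart. The adjusted p-values judge a difference against the variation among libraries, 3 in each group, and what the libraries of a group share is not recorded. The library numbers in the titles run in blocks by group. If they give an order of handling, its effect cannot be told apart from that of the group.

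**Figure D1:**
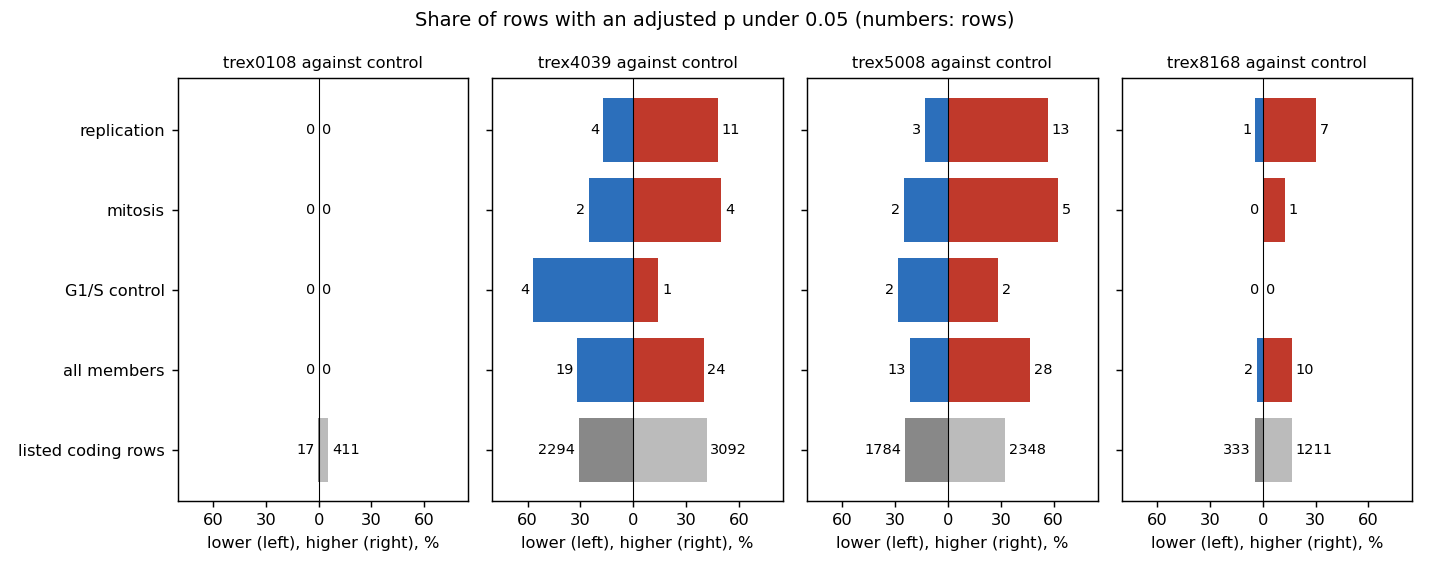
Share of members called higher (right, red) or lower (left, blue) at an adjusted p under 0.05 in each comparison, in percent of rows with an adjusted p, with the number of rows beside each bar; the grey bars are all listed protein-coding rows. Replication members rose in 47.8% of rows in trex4039, 56.5% in trex5008 and 30.4% in trex8168, and G1/S members fell in 57.1% of rows in trex4039. The grey bars stand at 41.6%, 32.4% and 16.6% for these rises, in that order, and at 30.9% for the falls in trex4039.

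Of the 6 subunits of the origin recognition complex 5 have a row, ORC2 to ORC6. Of these, 4 rose in trex4039 (80.0%), 5 in trex5008 (100%) and 1 in trex8168 (20.0%) in the authors' deposited table, and none fell. The shares of rises among all listed protein-coding rows were 41.6%, 32.4% and 16.6% in that order. The ORC rows have a median transcript GC content of 40.1%, and of listed protein-coding rows with at most 43.0% GC, 83.6% rose in trex4039 and 64.7% in trex5008. With the GC trend of the listed rows subtracted, the median ORC log2 fold change in trex4039 was 0.036, beside 0.30 as deposited, and ORC6 was at -0.055. ORC3 had means of 2859.6 in trex0108, 3573 in trex4039, 3348 in trex5008 and 3193 in trex8168, against 2625 in control. Its log2 fold changes were 0.42 in trex4039, 0.34 in trex5008 and 0.27 in trex8168, with adjusted p-values of 3.16e-11, 6.27e-07 and 4.29e-04 as the authors' deposited table gives them. The 4 target groups all lay above control, with trex4039 highest. ORC4 had means of 1362 in trex0108, 1738 in trex4039, 1621 in trex5008 and 1410.0 in trex8168, against 1235 in control, and its log2 fold changes in the authors' deposited table were 0.46 in trex4039 (adjusted p 1.92e-10) and 0.37 in trex5008 (adjusted p 1.51e-06). ORC5 rose in trex4039 (0.30) and trex5008 (0.22), and so did ORC6, the smallest subunit (0.16 in trex4039 and 0.21 in trex5008), on the log2 scale of the authors' deposited table. ORC2 rose in trex5008 (0.18, adjusted p 0.00973) and stood at 0.12 with an adjusted p of 0.101 in trex4039. Control had the lowest of the 5 group means for all 5 subunits. In trex0108 their log2 fold changes lay between 0.0103 and 0.13, none of them called in the authors' deposited table.

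The helicase subunits did not move as 1 group in the deposited values. MCM2 had means of 13349 in trex0108, 11666 in trex4039, 11822 in trex5008 and 14719 in trex8168, against 13279 in control. It fell in trex4039 (-0.18, adjusted p 7.45e-04) and trex5008 (-0.16, 0.00344) and rose in trex8168 (0.14, 0.0271) on the log2 scale of the authors' deposited table. The difference between these comparisons was not tested. MCM6 had means of 7372 in trex0108, 7937 in trex4039, 8018 in trex5008 and 7892 in trex8168, against 7201 in control, and it rose in trex4039 (0.14, adjusted p 0.0231) and trex5008 (0.15, 0.0113) in the authors' deposited table. MCM3 and MCM4 rose in trex8168 with log2 fold changes of 0.16 and 0.18 and adjusted p of 0.00410 and 0.00802, and were called in none of the other comparisons of the authors' deposited table. MCM3 had means of 15988 in trex0108, 15364 in trex4039, 16116 in trex5008 and 17810.5 in trex8168, against 15877 in control, so trex8168 was the highest and trex4039 the lowest. MCM4 had means of 13852 in trex0108, 13809 in trex4039, 13507 in trex5008 and 14824 in trex8168, against 13055 in control. Per kilobase of the longest transcript, the mean over all groups was 5060 for MCM3, 3580 for MCM2, 3301 for MCM4 and 2057 for MCM6, beside 220 to 1393 for the ORC subunits.

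The rows of MCM5 and MCM7, the remaining subunits, do not stand for the whole gene. Only their lengths were set against RefSeq, and whether they lie within the genes was not checked. The MCM5 row (chromosome 22, 35862831 to 35873833, hg19) has a length of 0.200 times the RefSeq gene length. It had means of 28.7 in trex0108, 19.2 in trex4039, 31.7 in trex5008 and 22.5 in trex8168, against 34.9 in control, with a fall in trex4039 (-0.37, adjusted p 0.0310) in the authors' deposited table. The MCM7 row (chromosome 7, 99685385 to 99686496, hg19) has a length of 0.128 times that of the RefSeq gene. It had means of 7.46 in trex0108, 3.14 in trex4039, 3.24 in trex5008 and 1.26 in trex8168, against 1.19 in control. Its log2 fold change of 0.26 in trex0108 had an adjusted p of 0.0803, and no adjusted p is given for the other groups in the authors' deposited table. MCM8, which acts with MCM9 in recombination and is not part of the MCM2-7 ring, had means of 4460.1 in trex0108, 4444 in trex4039, 4210.5 in trex5008 and 3797 in trex8168, against 4218 in control, and it fell in trex8168 (-0.15, adjusted p 0.0304) in the authors' deposited table. Over all members, 14 loci span more than 2 times the RefSeq gene length, among them those of MCM3, GINS2, GINS3, CDC20, CCNB2, CCND1, CDK4 and CDK5, so reads of neighbouring genes may be in these rows.

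**Figure D2:**
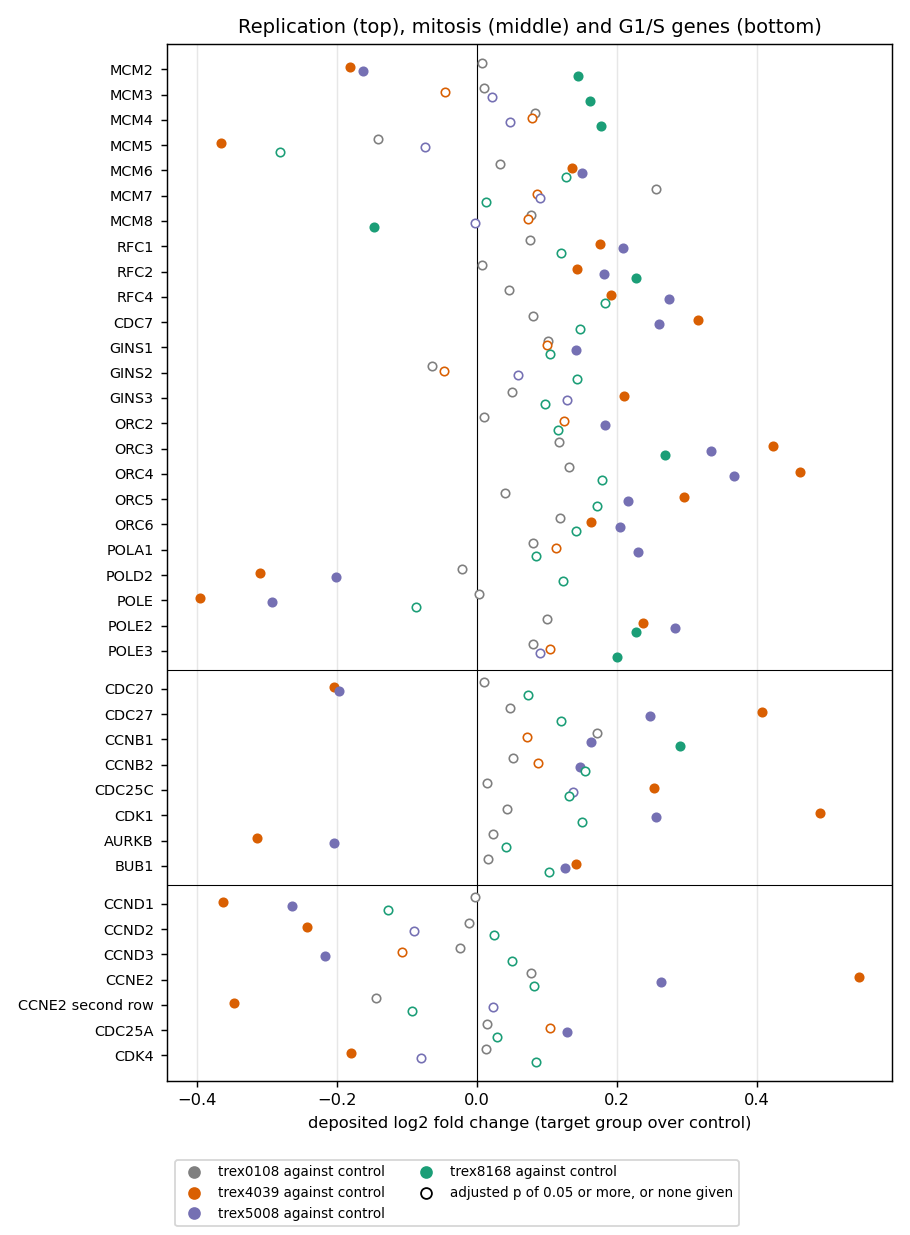
Deposited log2 fold change of each replication, mitosis and G1/S row (rows of the plot) in the 4 comparisons with control (colours); filled points have an adjusted p under 0.05. ORC3 and ORC4 lie at 0.42 and 0.46 in trex4039, POLE at -0.40 and CCND1 at -0.36, and MCM2 lies on both sides of 0.

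Among the factors that fire origins, CDC7, the kinase that acts with DBF4 on the MCM ring, had means of 4639.7 in trex0108, 5514 in trex4039, 5294 in trex5008 and 4875 in trex8168, against 4376 in control. It rose in trex4039 (0.32, adjusted p 4.66e-06) and trex5008 (0.26, 3.06e-04) in the authors' deposited table. Of the GINS subunits, which form part of the active helicase, GINS1 rose in trex5008 (0.14, adjusted p 0.0369) and GINS3 in trex4039 (0.21, 0.00606) in the authors' deposited table; GINS2 was not called. The GINS3 locus is the longest relative to its gene, with 8.26 times the RefSeq length. GINS1 had means of 2552 in trex0108, 2549.6 in trex4039, 2629 in trex5008 and 2558 in trex8168, against 2372 in control. For GINS2 they were 2826 in trex0108, 2861 in trex4039, 3090.3 in trex5008 and 3287 in trex8168, against 2961 in control.

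All 3 listed clamp loader subunits, RFC1, RFC2 and RFC4, rose in trex4039 and in trex5008, beside 41.6% and 32.4% of listed protein-coding rows, and RFC2 also rose in trex8168. With the GC trend subtracted, RFC1 was at -0.086 and RFC4 at -0.0083 in trex4039. RFC2 had means of 3669 in trex0108, 4051 in trex4039, 4166 in trex5008 and 4309 in trex8168, against 3651 in control. Its log2 fold changes in the authors' deposited table were 0.14 in trex4039, 0.18 in trex5008 and 0.23 in trex8168, with adjusted p of 0.0403, 0.00709 and 0.00255. The 3 groups with a call stood at 111% (trex4039), 114% (trex5008) and 118% (trex8168) of control, and trex0108 at 100.5%. RFC1 rose in trex4039 (0.18) and trex5008 (0.21), and RFC4 in trex4039 (0.19) and trex5008 (0.28), on the log2 scale of the authors' deposited table. RFC4 had means of 1875 in trex0108, 2089 in trex4039, 2222 in trex5008 and 2077 in trex8168, against 1812 in control.

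The polymerase subunits divided by gene, also within 1 enzyme. POLE, the catalytic subunit of polymerase epsilon, had means of 10137 in trex0108, 7612 in trex4039, 8195 in trex5008 and 9498 in trex8168, against 10111 in control. It fell in trex4039 (-0.40, adjusted p 5.80e-14) and trex5008 (-0.29, 1.28e-07) in the authors' deposited table, and the mean in trex0108 was close to that in control. POLE2, the second subunit of the same enzyme, had means of 939.5 in trex0108, 1040.1 in trex4039, 1075 in trex5008 and 1033 in trex8168, against 871 in control. On the log2 scale it rose by 0.24 in trex4039, 0.28 in trex5008 and 0.23 in trex8168, with adjusted p-values of 0.00409, 5.65e-04 and 0.0197 as the authors' deposited table gives them. The ratio of POLE to POLE2 counts was 10.8 in trex0108, 7.32 in trex4039, 7.62 in trex5008 and 9.20 in trex8168, against 11.6 in control, a ratio chosen after the values were seen. With the GC trend subtracted, POLE was at -0.21 and POLE2 at 0.0055 in trex4039, and at -0.14 and 0.12 in trex5008. POLE3, a small histone-fold subunit, rose in trex8168 (0.20, adjusted p 0.00690) in the authors' deposited table. POLD2, an accessory subunit of polymerase delta, had means of 4750.0 in trex0108, 3851 in trex4039, 4167 in trex5008 and 5278 in trex8168, against 4826 in control, and it fell in trex4039 (-0.31, adjusted p 1.44e-06) and trex5008 (-0.20, 0.00327) in the authors' deposited table. POLA1, the catalytic subunit of polymerase alpha, which starts each strand with primase, rose in trex5008 (0.23, adjusted p 1.07e-04) in the authors' deposited table, with means of 3709.8 in trex0108, 3799 in trex4039, 4134 in trex5008 and 3722 in trex8168, against 3502 in control.

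Mitosis genes also moved both ways in the deposited values. CDK1, the kinase that drives entry into mitosis, had means of 4194 in trex0108, 5829 in trex4039, 4905 in trex5008 and 4537 in trex8168, against 4060.0 in control. It rose in trex4039 (0.49, adjusted p 9.53e-12) and trex5008 (0.26, 9.66e-04) in the authors' deposited table. Its partner CCNB1, cyclin B1, had means of 6170.1 in trex0108, 5735 in trex4039, 6126 in trex5008 and 6720.4 in trex8168, against 5442 in control, with trex8168 highest. CCNB1 rose in trex8168 (0.29, adjusted p 1.06e-04) and trex5008 (0.16, 0.0221) and was not called in trex4039 (0.072, 0.403) in the authors' deposited table. CCNB2 rose in trex5008 alone (0.15, adjusted p 0.0407) in the authors' deposited table, although its mean was higher in trex8168, at 3313, than in trex5008, at 3294, against 2959 in control. CDC25C, a phosphatase that activates CDK1, rose in trex4039 (0.25, adjusted p 0.00152), with a mean of 1723, against 1428 in control, in the authors' deposited table.

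CDC27 and CDC20, a core subunit and an activator of the anaphase-promoting complex, moved apart in the deposited values. With the GC trend subtracted, CDC27 was at 0.071 and CDC20 at 0.014 in trex4039, and at 0.035 and -0.014 in trex5008. CDC27 had means of 7080.4 in trex0108, 9184 in trex4039, 8179.7 in trex5008 and 7459 in trex8168, against 6839 in control, and it rose in trex4039 (0.41, adjusted p 5.72e-12) and trex5008 (0.25, 9.00e-05) in the authors' deposited table. CDC20 had means of 5764 in trex0108, 4936 in trex4039, 4960.2 in trex5008 and 6033 in trex8168, against 5719 in control, and it fell in trex4039 (-0.20, adjusted p 6.76e-04) and trex5008 (-0.20, 0.00139) in the authors' deposited table. AURKB, the kinase of the chromosomal passenger complex, had means of 3291 in trex0108, 2577 in trex4039, 2788 in trex5008 and 3338 in trex8168, against 3237 in control. It fell in trex4039 (-0.31, adjusted p 8.61e-07) and trex5008 (-0.20, 0.00259) in the authors' deposited table, and trex8168 was the highest group. The spindle checkpoint kinase BUB1 rose by a log2 fold change of 0.14 in trex4039 and 0.13 in trex5008, with adjusted p-values of 0.0220 and 0.0464 as the authors' deposited table gives them.

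Of the 7 rows of the G1 to S step, 1 rose and 4 fell in trex4039 (14.3% and 57.1%), beside 41.6% and 30.9% of listed protein-coding rows, with a median log2 fold change of -0.18. CCNE2 has 2 of the 7 rows and is both the rise and 1 of the 4 falls, the fall being that of a short second row of low counts. CCND1, cyclin D1, had means of 2104 in trex0108, 1620.4 in trex4039, 1740.3 in trex5008 and 1925 in trex8168, against 2109 in control. It fell in trex4039 (-0.36, adjusted p 2.40e-08) and trex5008 (-0.26, 1.10e-04) in the authors' deposited table, and control was the highest group. CCND2 fell in trex4039 (-0.24, adjusted p 0.00224) and CCND3 in trex5008 (-0.22, 0.00177) in the authors' deposited table. CCND2 had means of 4821 in trex0108, 4061 in trex4039, 4548 in trex5008 and 4955 in trex8168, against 4865 in control, and CCND3 had means of 2105 in trex0108, 1980.3 in trex4039, 1828 in trex5008 and 2220.0 in trex8168, against 2139.6 in control. CDK4, the partner of the D cyclins, fell in trex4039 (-0.18, adjusted p 0.0107) in the authors' deposited table, with a mean of 4641, against 5290.4 in control.

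CCNE2, cyclin E2, had the largest deposited rise of all 61 rows. Its main row had means of 972 in trex0108, 1384 in trex4039, 1118 in trex5008 and 975 in trex8168, against 916 in control, with log2 fold changes of 0.55 in trex4039 (adjusted p 2.11e-11) and 0.26 in trex5008 (0.00315) in the authors' deposited table. A second row with the same symbol lies at 95908892 to 95914254 on chromosome 8, at the end of the main row at 95888701 to 95908908 (hg19). It is thus mostly outside the main row, and its length is 0.326 times the RefSeq gene length. This second row had a mean of 25.0 in trex4039, against 42.4 in control, and fell in trex4039 (-0.35, adjusted p 0.0452) in the authors' deposited table. CDC25A, the phosphatase that activates CDK2 and CDK1, rose in trex5008 (0.13, adjusted p 0.0152) and stood at 0.11 (0.0554) in trex4039 in the authors' deposited table. In trex8168 0 of 7 G1/S rows were called, beside 16.6% of listed protein-coding rows higher and 4.57% lower.

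Replication genes, set against mitosis genes, had closely similar medians in each comparison. The median log2 fold change of the 24 replication rows was 0.063 in trex0108, 0.12 in trex4039, 0.15 in trex5008 and 0.14 in trex8168, in the authors' deposited table. That of the 8 mitosis rows was 0.033 in trex0108, 0.12 in trex4039, 0.14 in trex5008 and 0.13 in trex8168. Replication minus mitosis came to 0.030 in trex0108, 0.0041 in trex4039, 0.0037 in trex5008 and 0.016 in trex8168. The listed protein-coding rows had medians of 0.028 in trex0108, 0.085 in trex4039, 0.048 in trex5008 and 0.055 in trex8168. With loci kept only where they span 0.5 to 2 times the RefSeq gene length, a limit set after the values were seen, the difference in trex4039 was -0.062. By calls, 7 of 23 replication rows rose in trex8168 (30.4%) and 1 fell, and 1 of 8 mitosis rows rose (12.5%) and 0 fell. Of all listed protein-coding rows 16.6% rose there and 4.57% fell. The replication row that fell was MCM8, which acts in recombination. The 24 replication rows also include the low-count rows of MCM5 and MCM7. With 8 mitosis rows, 1 row is 12.5% of the class, and no test of replication against mitosis rows was made.

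Across the 5 group means, control was the lowest group for 17 of 24 replication rows (70.8%) and 6 of 8 mitosis rows (75.0%), beside 39.0% of listed protein-coding rows. For G1/S rows trex4039 was the lowest group in 4 of 7 (57.1%), beside 31.3% of listed protein-coding rows. Among these is the low-count second row of CCNE2, while the main row of CCNE2 was highest in trex4039. The table lists rows for differing from control, so control at an end of the order is in part built in. Relative to the mean of the 5 groups, the median replication row stood at -0.034 in trex0108, 0.033 in trex4039, 0.066 in trex5008 and 0.032 in trex8168, against -0.10 in control, on the log2 scale. For mitosis rows the medians were -0.053 in trex0108, 0.032 in trex4039, 0.039 in trex5008 and 0.047 in trex8168, against -0.11 in control. These spans are small: over the 58 members with an overall mean of at least 50, the highest group mean was 1.10 to 1.73 times the lowest, with a median of 1.22, beside 1.26 over 6972 protein-coding rows.

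**Figure D3:**
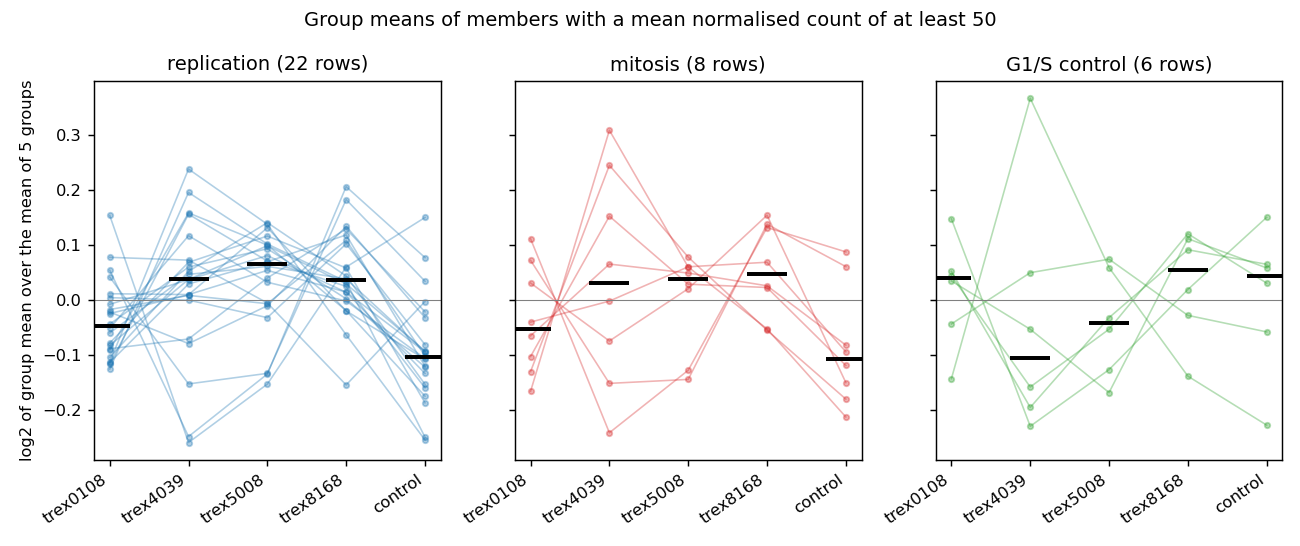
Group means of each replication, mitosis and G1/S row with an overall mean of at least 50, as the log2 ratio to the mean of the 5 groups (vertical axis), in the 5 groups (horizontal axis); thin lines join the values of a row and black bars are medians. The lines of replication and mitosis rows run mostly upward to the left of control, which was lowest for 17 of 24 replication rows and 6 of 8 mitosis rows of any level.

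The direction of a member in trex4039 and trex5008 followed the GC content of its transcript. Members called higher had a median GC of 41.3% in trex4039 and 41.8% in trex5008, and members called lower had 56.6% in each. Of the 21 members with at most 43.0% GC, 15 rose and 1 fell in trex4039 (71.4% and 4.76%) and 17 rose and 0 fell in trex5008 (81.0% and 0%). Among the 2126 listed protein-coding rows in that GC range, 83.6% rose and 1.98% fell in trex4039, and 64.7% rose and 0.423% fell in trex5008. Of the 17 members above 55.2% GC, 0 rose and 14 fell in trex4039 (82.4%) and 0 rose and 12 fell in trex5008 (70.6%). Among the 2126 listed protein-coding rows above it, 67.6% fell and 1.51% rose in trex4039, and 57.7% fell and 0.47% rose in trex5008. The opposite pairs named above follow that order: POLE has 56.4% GC and POLE2 43.7%, MCM2 58.1% and MCM6 43.1%, CDC20 57.9% and CDC27 36.6%, and AURKB 55.6% and CDK1 37.0%. The called members with a sign opposite to the trend at their GC content were RFC2 (53.6%) and CCND1 (50.3%) in both comparisons, CCND2 (45.5%) and the second row of CCNE2 (36.9%) in trex4039, and CDC25A (51.7%) in trex5008. The GC content of that second row was taken by symbol from the CCNE2 transcript, and its own is not known. The part of GC in these calls was not tested. Over the 61 members, which share libraries and base composition within families, Pearson's r of log2 fold change with GC was -0.42 in trex0108, -0.80 in trex4039, -0.83 in trex5008 and -0.39 in trex8168. Over 6377 listed protein-coding rows with a GC content it was -0.10 in trex0108, -0.79 in trex4039, -0.79 in trex5008 and -0.26 in trex8168, so the order held across the table.

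With the GC trend of the listed rows subtracted, 2 of 24 rises and 7 of 19 falls in trex4039 kept their sign and 0.5 or more of their size. The 2 rises were RFC2, at 0.24, and PLK2, a polo-like kinase induced by stress, at 0.16. The falls included CCND1 at -0.40, CCND2 at -0.44, CDK18 at -0.28, POLE at -0.21 and the low-count second row of CCNE2 at -0.68. For that second row the trend was read at the GC content of the CCNE2 transcript, which may not be its own. In trex5008, RFC2 (0.27) and CDC25A (0.15) among 28 rises and CCND1 (-0.28) and CDK18 (-0.27) among 13 falls kept that much. The ORC rises shrank to 0.12 and 0.14 for ORC3 and ORC4 in trex4039, and CDK1 to 0.16. In trex8168, 7 of 10 rises and 2 of 2 falls kept it, among them MCM2 at 0.17, RFC2 at 0.21, ORC3 at 0.19 and CCNB1 at 0.19. The share of all called protein-coding rows that kept as much is not given here, so these counts have no background beside them.

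**Figure D4:**
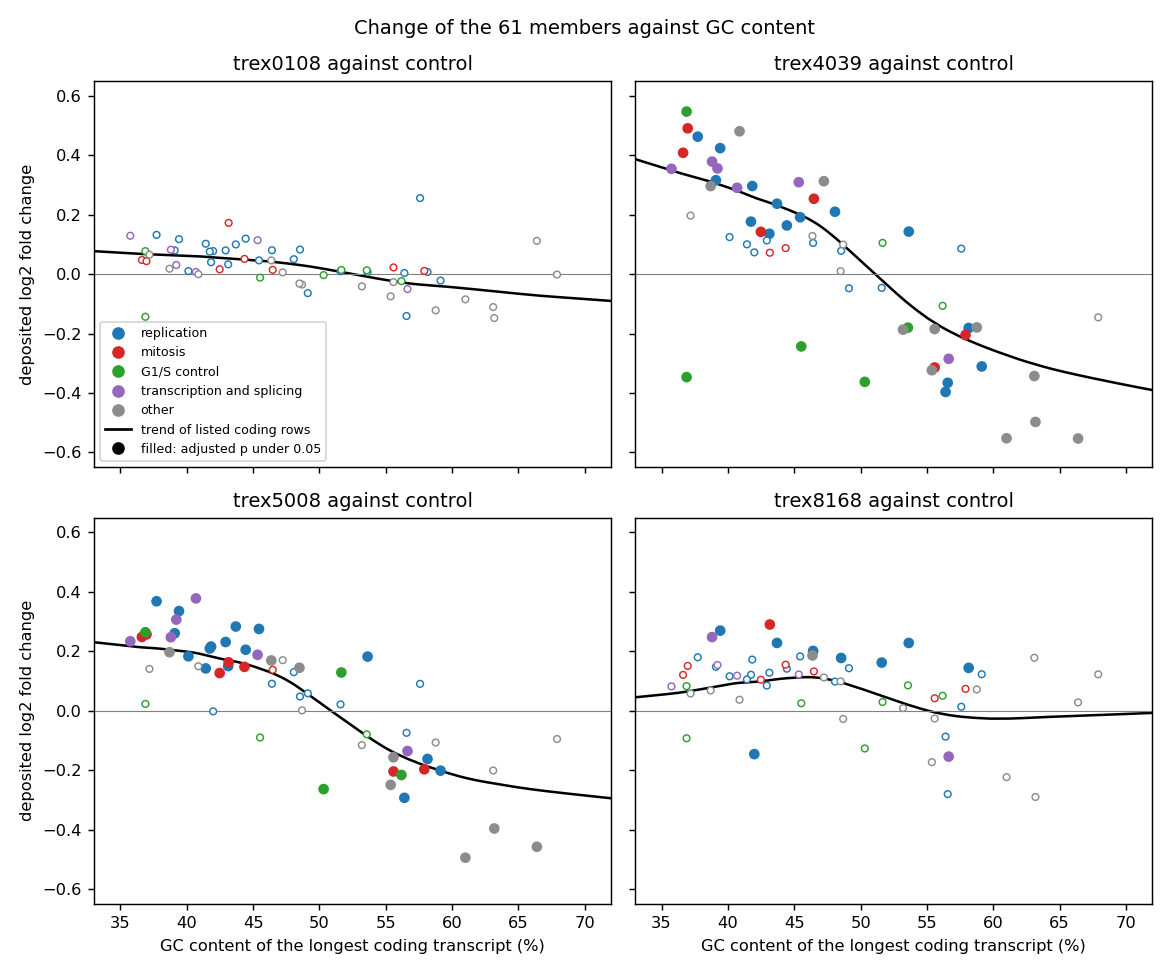
Deposited log2 fold change of the 61 members (vertical axis) against the GC content of the longest protein-coding transcript (horizontal axis, percent), 1 panel per comparison; colours are roles, filled points have an adjusted p under 0.05, and the line is the smoothed trend of the listed protein-coding rows. Members above 55.2% GC lie below 0 when called in trex4039 (14 of 17) and trex5008 (12 of 17), and the trend is shallower in trex0108 and trex8168.

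In the authors' deposited table, 5 of 6 transcription and splicing rows rose and 1 fell in trex4039 (83.3% and 16.7%), and likewise in trex5008, beside 41.6% and 30.9% of listed protein-coding rows in trex4039 and 32.4% and 24.6% in trex5008. In trex8168 1 rose and 1 fell, and in trex0108 0 were called. The median GC content of these rows is 39.9%, below the 43.0% under which 83.6% of listed rows rose in trex4039. With the GC trend subtracted, their median log2 fold change in trex4039 was 0.031, beside 0.33 as deposited, and none of the 5 rises kept 0.5 of its size in trex4039 or in trex5008. CDC5L, a core splicing factor, had means of 8687 in trex0108, 10739 in trex4039, 9774 in trex5008 and 9778 in trex8168, against 8191 in control, with log2 fold changes of 0.38 in trex4039, 0.25 in trex5008 and 0.25 in trex8168 and adjusted p-values of 4.59e-13, 8.83e-06 and 5.25e-05 as the authors' deposited table gives them. CDK7, the kinase of the transcription factor TFIIH that also activates cell cycle kinases, rose by a log2 fold change of 0.38 in trex5008 (adjusted p 2.76e-05), and CDC40, a splicing factor, by 0.31 (9.95e-06), in the authors' deposited table. CDK11B, a kinase with a near-identical copy that could share its reads, fell in trex4039 (-0.28), trex5008 (-0.14) and trex8168 (-0.15), with adjusted p-values of 1.06e-06, 0.0348 and 0.0364 as the authors' deposited table gives them. CDC73, a subunit of the PAF1 elongation complex, and CDK8, the kinase of Mediator, rose in trex4039 (0.35 for CDC73 and 0.31 for CDK8) and trex5008 (0.23 and 0.19) in the authors' deposited table.

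The largest deposited falls in trex4039 and trex5008 came from the members with other roles. CDC42EP1, an effector of CDC42 that shapes the actin skeleton, had means of 3738 in trex0108, 2273 in trex4039, 2440.2 in trex5008 and 3512 in trex8168, against 3439 in control, with log2 fold changes of -0.55 in trex4039 (adjusted p 2.14e-12) and -0.46 in trex5008 (2.78e-08) in the authors' deposited table. CDK18 had means of 1019 in trex0108, 712 in trex4039, 742 in trex5008 and 917 in trex8168, against 1088 in control, with -0.55 in trex4039 and -0.49 in trex5008 on the log2 scale of the authors' deposited table (adjusted p 8.09e-10 and 1.27e-07). PLK5, a polo-like kinase that lacks kinase activity in humans, had a mean of 47.1 in trex4039, against 81.4 in control, and fell, with a log2 fold change of -0.50 (adjusted p 0.00147), and in trex5008 it fell too (-0.40, 0.0148), in the authors' deposited table. CDK17 rose in trex4039 (0.48, adjusted p 1.37e-09) and CDC123, which helps to assemble the translation initiation factor eIF2, rose in trex5008 (0.17, 0.0144) and trex8168 (0.19, 0.0190) in the authors' deposited table. In all, the 16 rows with other roles gave 3 rises and 8 falls in trex4039 (18.8% and 50.0%), 3 and 5 in trex5008 (18.8% and 31.2%) and 1 and 0 in trex8168 (6.25% and 0%), beside the protein-coding shares of 41.6% and 30.9%, 32.4% and 24.6%, and 16.6% and 4.57%. The remaining ones were CDC42BPB, CDC42BPG, CDC42SE1, CDC42SE2, CDK5, CDK5RAP2, CDK20, AURKAIP1, CDC37L1, MCM3AP and PLK2, and the 16 rows spanned -0.55 to 0.48 in trex4039, -0.49 to 0.20 in trex5008 and -0.29 to 0.19 in trex8168, as log2 fold changes of the authors' deposited table.

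Further genes of the same pathways were read from lists named by function. Of 29 further replication fork and origin factors, the 12 listed rows gave 7 rises and 3 falls in trex4039, 8 and 1 in trex5008, 4 and 2 in trex8168 and none in trex0108. These were 58.3% and 25.0% of the rows with an adjusted p in trex4039, 72.7% and 9.09% in trex5008 and 36.4% and 18.2% in trex8168. For this list and those that follow, the shares of all listed protein-coding rows were 41.6% higher and 30.9% lower in trex4039, 32.4% and 24.6% in trex5008, 16.6% and 4.57% in trex8168 and 5.52% and 0.228% in trex0108. Their median log2 fold change was 0.17 in trex4039, 0.17 in trex5008 and 0.13 in trex8168. WDHD1, a replisome scaffold, rose by a log2 fold change of 0.40 in trex4039, 0.35 in trex5008 and 0.22 in trex8168, and TOPBP1, which helps to fire origins, by 0.35 in trex4039 and 0.22 in trex5008, in the authors' deposited table. CHTF18, of an alternative clamp loader, fell in trex4039 (-0.76) and trex5008 (-0.43), and the main row of TICRR, also an origin firing factor, in trex4039 (-0.42) and trex8168 (-0.23), as log2 fold changes of the authors' deposited table. The GC content of CHTF18 is 69.1%, of TICRR 52.0% and of WDHD1 38.1%.

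Of 47 further mitosis factors, 29 rows are listed, with 15 rises and 4 falls in trex4039, 13 and 6 in trex5008, 7 and 0 in trex8168 and 1 rise in trex0108. As shares these were 51.7% and 13.8% in trex4039, 44.8% and 20.7% in trex5008 and 24.1% and 0% in trex8168, against the protein-coding background of 41.6% and 30.9%, 32.4% and 24.6%, and 16.6% and 4.57%. Their median was 0.19 in trex4039, 0.16 in trex5008 and 0.11 in trex8168, on the same scale. The checkpoint kinase TTK rose in trex4039 (0.58), trex5008 (0.41) and trex8168 (0.30), and ECT2, needed for cytokinesis, in trex4039 (0.45) and trex5008 (0.20), as log2 fold changes of the authors' deposited table. ANAPC2, of the anaphase-promoting complex, fell in trex4039 (-0.56) and trex5008 (-0.34) in the authors' deposited table. The row of TOP2A, with an overall mean of 21.0, rose in trex4039 (0.46) in the authors' deposited table. The single rise in trex0108, named after its value was seen, was that of TPX2, a spindle assembly factor, with 0.18 in the authors' deposited table (adjusted p 0.00649).

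For nucleotide supply 4 of 10 genes are listed. RRM2B, a p53-induced subunit of ribonucleotide reductase, rose in trex0108 (0.30), trex4039 (0.56) and trex5008 (0.32), TYMS in trex4039 (0.17) and trex8168 (0.23) and DUT in trex8168 (0.26), while TK1 fell in trex5008 (-0.19), in the authors' deposited table. Of 10 CDK inhibitors and pocket proteins 5 are listed, with 3 rises in trex4039, 1 in trex5008 and 2 in trex8168 and no fall. RB1, the retinoblastoma gene, rose in trex4039 (0.66), trex5008 (0.46) and trex8168 (0.28), RBL1 (0.29) and CDKN2C (0.19) in trex4039, and CDKN2A in trex8168 (0.34), in the authors' deposited table.

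Of 14 symbols of E2F and DREAM factors, 9 rows are listed, with 5 rises and 1 fall in trex4039, 4 and 2 in trex5008 and 0 and 2 in trex8168. LIN54 rose in trex4039 and trex5008 (0.43 and 0.26) and LIN9 likewise (0.40 and 0.18), both subunits of the complex that binds CHR elements, in the authors' deposited table. LIN52 has a row that rose in trex4039 (0.38) and trex5008 (0.34) and a row of low counts that fell in trex4039 (-0.45) and trex8168 (-0.48) in the authors' deposited table. LIN54 stood at 0.12 in trex4039 and 0.054 in trex5008 after subtraction of the GC trend. LIN9 was then at 0.13 in trex4039 and -0.0072 in trex5008, and the LIN52 row that rose at 0.15 and 0.18. Of 11 checkpoint genes 5 rows are listed, with 1 rise and 1 fall in trex4039, 2 and 1 in trex5008 and 0 and 1 in trex8168. Of the clamp that loads at damaged DNA, RAD9A fell in trex4039 (-0.49), trex5008 (-0.33) and trex8168 (-0.28) in the authors' deposited table. RAD1 rose there in trex4039 (0.27) and trex5008 (0.20), and the kinase ATM in trex5008 (0.21). RAD1 (42.1% GC) shrank to 0.014 in trex4039 and 0.017 in trex5008 after that subtraction, and ATM to 0.0052 in trex5008. RAD9A (60.6% GC) was then at -0.22 in trex4039, -0.11 in trex5008 and -0.26 in trex8168. The part of GC in the calls of these lists was not tested.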

How the data were processed

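PolyA RNA of 15 HEK293FT libraries, 3 in each of 5 groups, was analysed from 1 table. The kit used keeps the strand, per the labels' protocols. Per the submitters' processing notes, the authors used STAR 2.5.1b, DESeq2 1.14.1, DESeq, Bowtie2 2.2.1, Cufflinks and bedtools, and the builds hg19 and GRCh37. Roles and order are not stated there. Whether the counting used strand is not given in the sources, which leaves overlapping and antisense loci uncertain. The deposited signal values are means of normalised counts in each group, made by the authors. The deposited log2 fold changes are the authors', target group over control. The deposited p-value columns hold the authors' adjusted p, and the deposited score columns their calls, which equalled an adjusted p under 0.1 with 0 mismatches. Values per library were not used here, so no count model was fitted, the planned leave-one-out was not run and depth is unknown.

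Members were found by symbol, sorted by textbook role and counted at an adjusted p under 0.05, beside all 7447 protein-coding rows. The members, roles and gene lists were chosen with earlier results of these data known. Named genes are the replication, mitosis and G1/S members, the 5 largest called rises and falls per comparison, members called alike in at least 3 comparisons, and up to 4 called genes per list, with TPX2 added after its value was seen. The HEK293 marker list is given without 1 gene, which is not reported here. Coordinates are hg19, as deposited. GC content is that of the longest protein-coding transcript in GENCODE 29, matched by symbol for 85.6% of protein-coding rows and all 61 members. Its trend was fitted with lowess (span 0.3, 3 robust passes, statsmodels 0.14.6, Python 3.11.15) and checked on simulated data. Promoters are from RefSeq, GRCh38.p14. Alternatives changed the threshold (0.1, 0.01), the minimum mean (50), the classes, the fold change (log2 ratio of means, pseudocount 1), the GC trend and the span of the locus.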

Additional observations from a re-analysis of the deposited data

How the results depend on the processing

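No paired analysis was possible because the table holds group means, with no column per replicate, and leaving out a replicate could not be run for the same reason. With the GC trend removed, called members that kept their sign and 0.5 or more of their size numbered 2 of 24 rises and 7 of 19 falls in trex4039 and 2 of 28 rises and 2 of 13 falls in trex5008. The 7 falls include the second row of CCNE2, whose own GC content is not known. The signs that turned in trex4039 were those of MCM2 (0.042), MCM6 (-0.105), RFC1 (-0.086), RFC4 (-0.0083), ORC6 (-0.055), CDC20 (0.014), BUB1 (-0.108), CDC42SE2 (-0.015) and CDK5 (0.055), and in trex5008 those of MCM2 (0.025), MCM6 (-0.020), GINS1 (-0.045), ORC2 (-0.015), POLD2 (0.00032), CCNB1 (-0.0068), CCNB2 (-0.011), BUB1 (-0.049), CDK11B (0.026) and CDC42SE2 (-0.0085). In trex8168 no sign turned, and 9 of 12 calls kept that much. Without the transcription and splicing class and the other class, falls numbered 10 in trex4039, 7 in trex5008 and 1 in trex8168. At an adjusted p under 0.1, rises numbered 1 of 61 in trex0108 and 19 of 60 in trex8168, and at 0.01 falls in trex8168 numbered 0. With loci of 0.5 to 2 times the RefSeq gene length, chosen after seeing the data, falls in trex4039 numbered 12 and replication minus mitosis there was -0.062, beside 0.0041. The causes were not tested. At these thresholds and filters no share of all listed protein-coding rows is given, so whether the members differ from those rows there was not tested. The other counts stayed within 1.5 times, the other replication minus mitosis differences kept their sign, and the log2 ratio of means kept all 96 called directions.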

Other observations

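Non-coding rows with a matching name stand outside the members. PLK1S1, listed as a processed transcript, had means of 1152 in trex0108, 1385 in trex4039, 1399 in trex5008 and 1275 in trex8168, against 1167 in control, and rose in trex4039 (0.24, adjusted p 3.64e-04) and trex5008 (0.25, adjusted p 2.22e-04) in the authors' deposited table. MCM3AP-AS1, antisense to MCM3AP, had means of 819 in trex0108, 681 in trex4039, 765 in trex5008 and 723 in trex8168, against 771 in control, and fell in trex4039 (-0.17, adjusted p 0.0492) in the authors' deposited table. MCM3AP itself fell there too (-0.19, adjusted p 8.57e-04), and reads of the pair cannot be told apart without the strand setting.

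Some ratios were taken between members whose fold changes had opposite signs. The pairs were chosen after the values were seen, so a difference between groups was built in. The ratio of AURKB to CDK1 counts was 0.785 in trex0108, 0.442 in trex4039, 0.568 in trex5008 and 0.736 in trex8168, against 0.797 in control. CDC20 over CDC27 was 0.814 in trex0108, 0.537 in trex4039, 0.606 in trex5008 and 0.809 in trex8168, against 0.836 in control. CCND1 over CCNE2 was 2.17 in trex0108, 1.17 in trex4039, 1.56 in trex5008 and 1.97 in trex8168, against 2.30 in control. MCM2 over MCM6 was 1.81 in trex0108, 1.47 in trex4039, 1.47 in trex5008 and 1.87 in trex8168, against 1.84 in control. Each pair joins a gene of higher GC content with one of lower GC content, and the part of GC in these ratios was not tested.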
